A study of Homo sapiens with 2 samples.

Results

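C/D box small nucleolar RNAs (snoRNAs) were taken as the rows of the gene table whose symbol begins with SNORD, together with the U3 RNA, which the table lists under its Ensembl identifier ENSG00000263934.2 (SNORD3A in the table of gene names). Of 263 such rows, 155 had a value above 0 in at least 1 library and are the members described here, out of 37364 genes in all. That choice rests on the measured values, so detection itself is a description and was not tested. The 2 libraries came from D407, a human cell line labelled as adult retinal pigment epithelium (RPE): 1 from cells treated with clusterin, an extracellular chaperone, and the other from control cells. How much clusterin was given, and for how long, is not stated in the labels, nor is the number of cultures behind each library. RNA was enriched on oligo(dT) beads, broken into short fragments and copied with random hexamers, a preparation not aimed at small RNAs. With 1 library per group there was no replicate check, no test between groups was made, and every interval below is a 95% interval for counting error only. In bulk RNA of this kind, fewer cells of a type and less RNA per cell cannot be told apart.

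C/D box snoRNAs carry a C box near the 5′ end and a D box near the 3′ end. They assemble with fibrillarin, NOP56, NOP58 and SNU13 into particles in which the bases before the D box, or before a second copy of it, pair with a target RNA and direct methylation of the ribose. Most targets lie in ribosomal RNA and a few in the U6 RNA of the spliceosome, while U3 is the member that organises the first cleavages of the ribosomal precursor. Most human members are cut out of introns of host genes, many of which encode ribosomal proteins or are noncoding genes of the SNHG type.

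The build of SNORD58B shows these parts. It is a guide for large-subunit ribosomal RNA that lies within RPL17, and is shown because its whole sequence could be read from the reference (RefSeq, GRCh38.p14, chromosome 18, 49491664 to 49491729, minus strand; 66 bases, written as DNA). Capitals mark TGATG, the start of the C box core, at base 7, and the D box letters CTGA at base 58, which leave 5 bases at the 3′ end. Searched on the gene's own strand in the first 66 bases of 35116 RefSeq promoter windows, TGATG was in 4.59% and CTGA in 25.3%, so either run of letters alone is no sign of a snoRNA.
SNORD58B: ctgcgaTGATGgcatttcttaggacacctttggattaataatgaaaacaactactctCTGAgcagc
SNORD58B itself measured 82.4 RPKM (reads scaled to gene length and to the library total) in the control library (208 reads) and 77.6 in the clusterin library (170 reads), and its host RPL17 measured 348 and 324 RPKM. Its RPKM ratio of clusterin to control was 0.942, with an interval of 0.765 to 1.16 that includes 1.

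Levels covered a wide range. U3 aside, member means over both libraries ran from 0.615 RPKM (SNORD84, a snoRNA within DDX39B) to 1706 RPKM (SNORD32A), with a median of 8.55 RPKM over all members. The rows outside the selection were all at 0, and none of the 155 members was at 0 in just 1 library. Reads could be recovered for 153 members. Over both libraries 16 members had at least 1000 reads, 61 had at least 100, and 45 had fewer than 20, so that for these last only large ratios could be told from counting error. In all the control library had 38236984 reads and the clusterin library 33177095, totals that were fitted to the deposited values and are not stated by the authors. A check of cell markers found KRT7, KRT8, KRT18 and KRT19, keratins of simple epithelia, between 97.0 and 420 RPKM in both libraries. Of 8 RPE genes 5 were at 0, RPE65, RLBP1, LRAT, TTR and TYR. The rest were MITF at 9.70 and 9.88 RPKM, BEST1 at 2.14 and 1.73, and PMEL at 0.582 and 0.397. Of 4 fibroblast genes, LUM (46.2 and 45.7 RPKM) and DCN (25.9 and 24.9) were well above 1 RPKM, while the collagen genes COL1A1 (1.15 and 0.920) and COL1A2 (0.0338 and 0.0223) were low.

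Of the 61 members with at least 100 reads, 48 had a counting interval that included 1. The interval lay above 1 for 7, U3, SNORD94, SNORD15A, SNORD22, SNORD10, SNORD17 and SNORD15B, and below 1 for 6, SNORD29, SNORD25, SNORD23, SNORD44, SNORD97 and SNORD35A. A q under 0.05 in the authors' deposited table was given to 10 members: the first 6 of the higher ones, and SNORD23, SNORD35A, SNORD97 and the thinner SNORD30 (98 reads) among the lower. The authors' deposited table lists q at 0 for U3, SNORD22, SNORD10 and SNORD17 and at 2.19e-12 for SNORD94. The q-values compare these 2 libraries, not the conditions. The 6 higher members are 3.87% of the 155, against 1.63% of all genes above 0, and the 4 lower ones are 2.58%, against 10.4% of all genes. Of the 144 members that averaged 1 RPKM or more, 67 were higher with clusterin and 77 lower. Thus 46.5% were higher, where 29.8% of 13244 genes at that level were. Their median log2((clusterin RPKM + 1)/(control RPKM + 1)) was -0.03, and that of all genes was -0.06. The other 11 members lay below that level, and some that reached it did so through 1 library alone, so these counts are a description. The split by interval also depends on the scaling. With the clusterin values rescaled so that the median log2 ratio of all genes is 0, SNORD68 (1.03 to 1.17) and SNORD36B (1.01 to 1.19) also lay above 1. The interval of SNORD44 (0.673 to 1.04) then included 1.

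On that log2 scale 4 members were at least 2-fold higher, 2.78% of the 144 against a background of 0.106%, and 2 at least 2-fold lower, 1.39% against 0.113%. All 6 were thinly covered, with 8 to 21 reads over both libraries. SNORD69, within GNL3, had 5 control and 16 clusterin reads, or 1.70 and 6.26 RPKM, a ratio of 3.69 (1.29 to 12.9). SNORD116-14 had 15 and 3 reads, a ratio of 0.231 (0.0428 to 0.815). The counting intervals of the other 4, SNORD42A, SNORD53, SNORD64 and SNORD98, included 1. The plot of ratio against depth shows these thin members beside the well-covered ones.

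**Figure D1:**
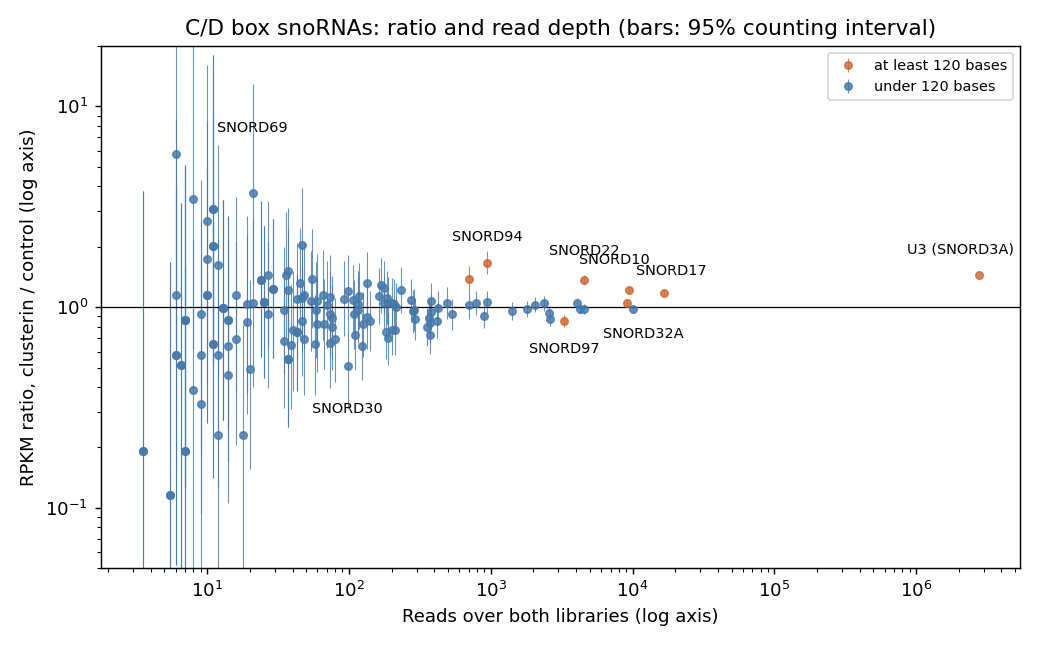
RPKM ratio of clusterin to control (log axis) against reads over both libraries (log axis) for the 153 C/D box snoRNAs with recovered reads; points are members, bars are 95% counting intervals, and colour marks members annotated at 120 bases or more. U3 stands at a ratio of 1.45 with 1226369 control and 1537721 clusterin reads, far to the right of SNORD17, the next by reads, while the ratios furthest from 1 belong to members with few reads, some of whose bars run past the axis.

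U3, the RNA of the small-subunit processome, was the most abundant member by far and was higher in the clusterin library. Its level was 45884 RPKM without clusterin and 66307 RPKM with it. At its listed length of 699 bases these levels are 1226369 and 1537721 reads, or 3.21% and 4.63% of all reads. The ratio was 1.45 (1.44 to 1.45). U3 made up 96.1% of member reads in the control and 97.1% with clusterin. RefSeq gives U3 a length of 217 bases, and at that length the same reads would be 147801 and 213589 RPKM; the ratio does not depend on the length. Its place in the file, chromosome 17, 19091329 to 19092027, is not its position on GRCh38, and the build of that row is not stated. The submitters' processing notes name hg19, while the other 154 members match starts on GRCh38.

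Among the 38 genes at 1000 RPKM or more on average, U3 had the highest ratio. RMRP, the RNA of ribonuclease MRP and also a factor in ribosomal RNA processing, measured 166650 and 171559 RPKM, a ratio of 1.03 (1.03 to 1.03). RPPH1, the RNA of ribonuclease P, measured 68088 and 68367 RPKM, a ratio of 1.004 (1.001 to 1.007). So neither of these abundant structural RNAs, read in the same libraries, showed the offset seen for U3. Among the 444 genes with at least 100 RPKM, only the H/ACA snoRNA SNORA9, at 90.8 and 133 RPKM, had a higher ratio than U3, at 1.46 (1.29 to 1.65).

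U3 has near-identical copies, and their rows did not share a direction. SNORD3B-2 measured 17.1 and 23.3 RPKM, a ratio of 1.36 (1.20 to 1.55), and SNORD3C at 15.9 and 19.8 RPKM, a ratio of 1.24 (1.07 to 1.44). SNORD3B-1 measured 56.1 and 36.8 RPKM, a ratio of 0.656 (0.597 to 0.719). These 3 rows are listed by Ensembl identifier, are not members, and held 353 to 1250 control reads each, so they are small beside U3. How reads were shared among the copies is not stated, and the level of each single copy is uncertain.

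No gene on the lists of proteins of these particles came near the log2 difference of U3, 0.53; the highest was IMP3 at 0.23. The core protein genes stood close to the median of all genes: FBL, the methyltransferase fibrillarin, at 69.8 and 67.0 RPKM (log2 -0.06), NOP56 at 59.1 and 56.0 (-0.08), NOP58 at 25.4 and 23.5 (-0.11), and NHP2L1, now SNU13, at 59.5 and 55.4 (-0.10). None of the 4 passed 2-fold and 3 lay below the median of all genes. Of 10 assembly factors none passed 2-fold either. Their median was -0.11, with 7 below the median of all genes; PIH1D1, of the R2TP complex, was the lowest at -0.19 and NUFIP1, which bridges SNU13 to the assembly machinery, the highest at 0.11. Among 6 genes of snoRNA end processing none passed 2-fold, and the median was -0.10, with the debranching enzyme DBR1 at -0.11 and the exonuclease XRN1 at -0.16.

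For the 21 genes of U3 and small-subunit processome proteins the median was -0.05, with 10 below the median of all genes and none past 2-fold. Of all measured genes only 0.106% were at least 2-fold higher and 0.113% at least 2-fold lower. A list this short with none past 2-fold therefore says little, and the same holds for the lists above. RRP9, the protein that binds U3 itself, measured 8.76 and 8.44 RPKM (log2 -0.05). IMP3 and IMP4, which join U3 to the precursor RNA, stood at 0.23 and 0.16, from 60.1 and 70.5 RPKM for IMP3, while their partner MPHOSPH10 was at -0.09. The lowest was UTP3, at 9.90 and 7.59 RPKM (log2 -0.34), and TBL3 stood at 0.18.

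SNORD22, a further member tied to ribosomal RNA processing, comes from the noncoding host SNHG1 on chromosome 11 (62852910 to 62853035 on GRCh38) and was higher with clusterin. Its level was 433 RPKM without clusterin and 592 RPKM with it, from 2086 and 2473 reads, a ratio of 1.37 (1.29 to 1.45). The other 7 members within SNHG1 lay below 1 in sum, with 614 and 456 reads, a ratio of 0.856 (0.757 to 0.968). Of these 7, 3 were above 1 (SNORD27, SNORD28 and SNORD31) and 4 below (SNORD25, SNORD26, SNORD29 and SNORD30). The lowest was SNORD30, at 25.4 and 12.9 RPKM from 68 and 30 reads, a ratio of 0.508 (0.319 to 0.792), followed by SNORD29 with 79 and 44 reads, at 0.642 (0.434 to 0.940). SNHG1 itself measured 43.3 and 40.8 RPKM, a ratio of 0.942. Thus members cut from 1 host had ratios on both sides of it, although the interval of the sum of the 7 included the ratio of SNHG1. With the clusterin values rescaled so that the median log2 ratio of all genes is 0, the sum of the 7 was at 0.899 (0.794 to 1.02) and its interval included 1.

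Among the guides for U6 RNA, 3 of 6 had ratios whose intervals lay above 1. Of the 61 members with at least 100 reads, 7 had such an interval, SNORD10 and SNORD94 among them. The guides were counted at any depth, and SNORD7, SNORD9 and SNORD67 had fewer than 100 reads. These shares are therefore not on a like basis and were not compared. The guides are SNORD7, SNORD8, SNORD9, SNORD10, SNORD67 and SNORD94, grouped here by target with their values known. SNORD94, within PTCD3 on chromosome 2 (86135870 to 86136006), measured 74.1 and 123 RPKM, from 388 and 559 reads, a ratio of 1.66 (1.46 to 1.89). SNORD10, within the translation factor gene EIF4A1 on chromosome 17 (7576811 to 7576958), measured 808 and 987 RPKM, from 4571 and 4845 reads, a ratio of 1.22 (1.17 to 1.27). SNORD67, within CKAP5, had only 17 and 30 reads, with a ratio of 2.03 (1.09 to 3.93). The remaining 3 had intervals that included 1: SNORD7 had 5 reads in each library, SNORD8 had 60 and 48, a ratio of 0.922 (0.617 to 1.37), and SNORD9 had 32 and 27, a ratio of 0.972 (0.560 to 1.68). In sum the 6 gave 5073 and 5514 reads, a ratio of 1.25 (1.21 to 1.30); without SNORD10 the sum was 502 and 669 reads and the ratio 1.54 (1.37 to 1.73). So 3 of the 6 guides, not the whole set, carried the higher sum. SNORD94 and SNORD10, annotated at 137 and 148 bases, are also among the longer members described below. For them target and length cannot be told apart.

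Among the guides for ribosomal RNA, the members with the most reads were SNORD17, SNORD32A, SNORD15B, SNORD33, SNORD34 and SNORD68. SNORD17, a large-subunit guide within the sorting nexin gene SNX5 (chromosome 20, 17962710 to 17962946), measured 909 and 1070 RPKM, from 8236 and 8416 reads, a ratio of 1.18 (1.14 to 1.21). SNORD15B, within RPS3 (chromosome 11, 75404421 to 75404566), measured 862 and 908 RPKM, a ratio of 1.05 (1.01 to 1.10). Its near relative SNORD15A, in the same host, measured 56.7 and 78.2 RPKM, from 321 and 384 reads, a ratio of 1.38 (1.19 to 1.60). SNORD68, within RPL13 (chromosome 16, 89561430 to 89561501), measured 769 and 802 RPKM, a ratio of 1.04 (0.980 to 1.11). These hosts stood near or below 1: SNX5 at a ratio of 0.943, RPS3 at 0.941 and RPL13 at 1.06.

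The 4 members within RPL13A, known from work on lipid and oxidative stress in cultured cells, stood near 1 apart from SNORD35A. SNORD32A (chromosome 19, 49489966 to 49490047) measured 1728 and 1684 RPKM, from 5417 and 4582 reads, a ratio of 0.975 (0.937 to 1.01). SNORD34 measured 920 and 901 RPKM, a ratio of 0.979 (0.922 to 1.04), and SNORD33 at 781 and 762 RPKM, a ratio of 0.975 (0.9198 to 1.03). SNORD35A measured 452 and 393 RPKM, from 1487 and 1121 reads, a ratio of 0.869 (0.803 to 0.940). RPL13A itself measured 1140.5 and 1054 RPKM, a ratio of 0.924. With the median of all genes set to 0, SNORD32A, SNORD33 and SNORD34 changed sign, while SNORD35A stayed below 1 at 0.912 (0.843 to 0.986).

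Lower members outside these hosts included SNORD97 and SNORD23, while SNORD44, within GAS5, is described below. SNORD97, linked to methylation of a methionine transfer RNA and lying within EIF4G2 (chromosome 11, 10801467 to 10801608), measured 348 and 297 RPKM, from 1887 and 1397 reads, a ratio of 0.853 (0.796 to 0.915). Its host was also the lowest of the hosts with well-covered members, at 52.0 and 46.3 RPKM, a ratio of 0.891. SNORD23, within GLTSCR2, had 230 and 145 reads, a ratio of 0.727 (0.586 to 0.898), where its host stood at 1.04. Of the thinner low members, SNORD101, SNORD24 and SNORD73A had ratios of 0.494, 0.553 and 0.553 from 20, 37 and 37 reads over both libraries, and the interval of each included 1. SNORD105, within PPAN, was at 1.51 from 37 reads, and its interval of 0.752 to 3.10 also included 1.

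Summed by length, the longer members with at least 100 reads had a higher ratio than the shorter ones, although single members of the classes overlapped. Besides U3, 7 members with at least 100 reads were annotated at 120 bases or more, from 126 to 237, and 6 of these had ratios above 1, all but SNORD97. Their summed reads were 22301 and 22471, a ratio of 1.16 (1.14 to 1.18), and their median ratio was 1.22. Of 49 such members under 100 bases, 21 had ratios above 1; their sum was 24674 and 20817 reads, a ratio of 0.972 (0.955 to 0.990), and their median was 0.975. The 4 members between had a median of 0.974. With the median of all genes set to 0 the sum of the short members passed to the other side, at 1.02 (1.002 to 1.04), and that of the long ones was at 1.22 (1.20 to 1.24), so the order of the sets is kept and the direction of the short set is not. Leaving out SNORD17 gave the long set a ratio of 1.15, and leaving out SNORD10 as well gave 1.12. The classes were drawn after the values were seen, and the part of length in these ratios was not tested.

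**Figure D2:**
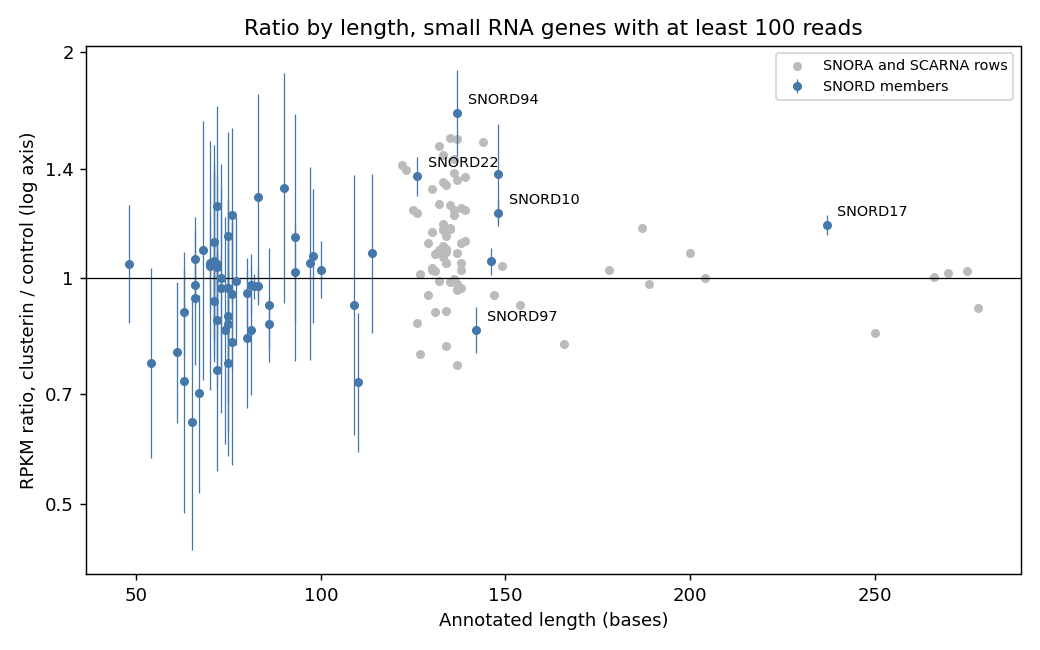
RPKM ratio (log axis) against annotated length in bases for small RNA genes with at least 100 reads; blue points are C/D box members other than U3 with 95% counting intervals, grey points are SNORA and SCARNA genes. SNORD94, SNORD22, SNORD10 and SNORD17 stand above 1 at 126 to 237 bases, SNORD97 stands below it, and the shorter members lie on both sides of 1.

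The other small RNA families gave values between these. For 78 SNORA and SCARNA genes with at least 100 reads, 122 to 278 bases long, the median ratio was 1.08 and 58 were above 1. For 38 microRNA hairpin loci with at least 100 reads the median was 1.0002 and 19 were above 1. The summed reads of C/D box members other than U3 were 50025 without clusterin and 45821 with it, or 0.131% and 0.138% of the library, a ratio of 1.06 (1.04 to 1.07). Leaving out SNORD17 as well gave 1.03 (1.02 to 1.05). For the 60 such members with at least 100 reads the sum was at 1.06 (1.05 to 1.07), with a median ratio of 0.986 and 29 above 1. At that depth the sum was at 1.05 (1.04 to 1.06) for the SNORA and SCARNA genes and 1.08 (1.06 to 1.09) for the microRNA loci. With U3 the sum of all C/D box members was 3.34% and 4.77% of the library, a ratio of 1.43 (1.43 to 1.43). So 1 member set the total of the whole class.

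Members and their host genes did not always lie on the same side of 1. A host listed by symbol, on the same strand and around the member, was found for 117 members, in 55 genes: 36 members lay in 15 ribosomal protein genes and 28 in 7 noncoding genes (SNHG genes, GAS5 and ZFAS1). Ribosomal protein hosts held 48.7% of the member reads other than those of U3. For the 54 members with at least 100 reads and a host, host ratios ran from 0.891 (EIF4G2) to 1.06 (C19orf48). Of their 30 hosts 25 were below 1, where only 29.8% of 13244 genes at 1 RPKM or more were higher with clusterin. Over all 55 hosts the ratios ran from 0.830 (SNHG5) to 1.19 (SNHG12). Member ratios ran from 0.642 to 1.66, and 32 of the 54 were above the ratio of their host. The median log2 of member ratio over host ratio was 0.06. Over all measured genes the median log2 ratio of clusterin to control was itself -0.07, so these counts are a description. Many of these members rest on few reads, such as SNORD29 with 123 and an interval of 0.434 to 0.940, and the spread of members was not tested against that of hosts.

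**Figure D3:**
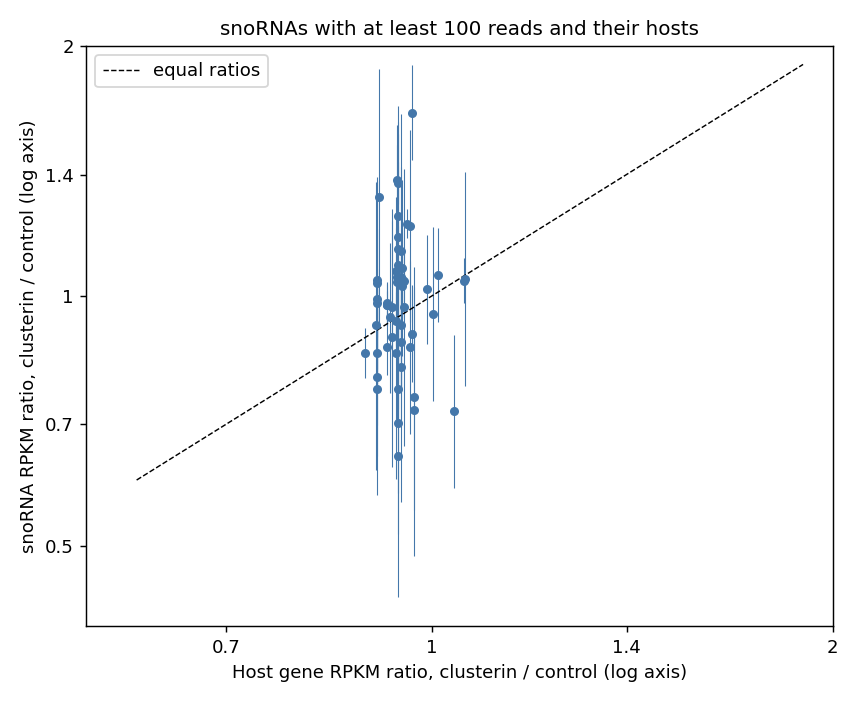
RPKM ratio of each C/D box snoRNA with at least 100 reads and a host (log axis, with 95% counting interval) against the RPKM ratio of its host gene (log axis); the dashed line marks equal ratios. These hosts range from 0.891 to 1.06 and the 54 members from 0.642 to 1.66, with wide counting intervals for many members.

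Members of 1 host also differed widely in level, although they are transcribed together. For the 16 hosts with at least 3 members, the highest member stood from 1.56 times (RABGGTB) to 166 times (RPL4) the lowest by mean RPKM. Within RPL4, a large-subunit protein gene at 814 and 773 RPKM, SNORD16 measured 285 and 293 RPKM and SNORD18A at 155 and 162, but SNORD18C at 8.59 and 5.85 and SNORD18B at 2.62 and 0.861. Within GAS5, a noncoding gene at 171 and 155 RPKM with 10 members, SNORD76 measured 312 and 306 RPKM and SNORD75 at 5.23 and 7.54, while SNORD44, SNORD47 and SNORD79 lay between 65.9 and 90.5 in both libraries. The ratio of the GAS5 members in sum was 0.943, and its interval of 0.884 to 1.01 included 1. Within RPL7A, SNORD36B stood at 462 and 481 against 8.72 and 4.82 for SNORD24. In each of these hosts the highest and the lowest member were the same in both libraries, while SNORD44 and SNORD47 changed places. For members this short, RPKM depends strongly on the annotated ends, so levels between members are less certain than ratios. Whether the reads came from the cut-out snoRNA or from uncut host RNA was not tested, so these are measured levels of the rows.

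**Figure D4:**
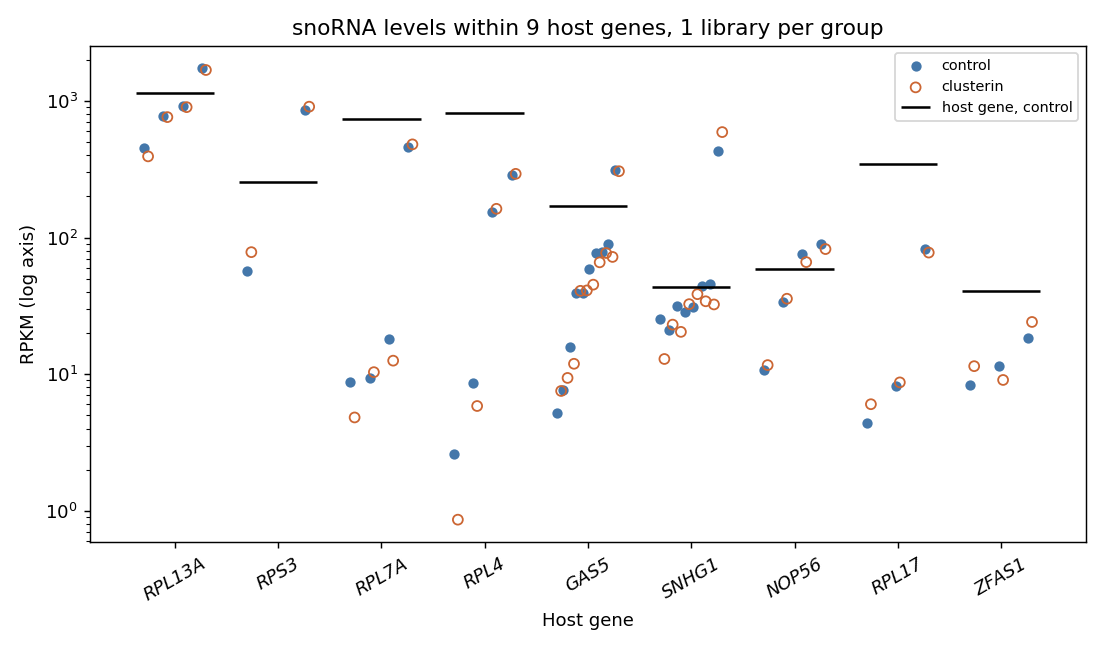
RPKM (log axis) of each member within 9 host genes, filled points for the control and open points for the clusterin library, members ordered by level within a host; black lines give the level of the host gene in the control. In RPL4 and RPL7A every member lies below the host, in RPS3 and GAS5 1 member lies above it, and in SNHG1 SNORD22 lies far above all others.

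The starts of the host genes are shown because many of them share a pyrimidine tract, the sign of genes whose translation follows growth signals. The motif searched was a C at the annotated start followed by at least 4 bases that are C or T, on the gene's own strand, at any of its starts in RefSeq (GRCh38.p14). It was found in 16 of 43 hosts with an entry, 37.2%, against 5.14% of 27305 genes; among ribosomal protein hosts it was in 7 of 10 and among other hosts in 9 of 33. The windows below hold the 20 bases before and 10 after the start for hosts of abundant members, with the tract in capitals where found.
RPL13A (chr19:49487588-49487617, plus strand): ccctgcgacaaaacctcctcCTTTTCCaag
RPS3 (chr11:75399498-75399527, plus strand): cttccgcccgcgagccacttCCTTTCCTTT
RPL13 (chr16:89560662-89560691, plus strand): gtgcattgcggggccgcttcCTTTCCgctc
SNX5 (chr20:17968785-17968814, minus strand): cccccgcaccgaaacgcggtCTTTCTCTag
SNHG1 (chr11:62855876-62855905, minus strand): tctccccggggagattcgttctcatttttc
PTCD3 (chr2:86106215-86106244, plus strand): gctttcccaacatgctctgcagagaaatca
EIF4A1 (chr17:7572805-7572834, plus strand): tcgataggcgggcactccgccctagtttct
RPL13A, RPS3, RPL13 and SNX5 hold the tract, and SNHG1, PTCD3 and EIF4A1 do not hold these letters at the annotated start. Hosts of members with high ratios were in both sets: SNORD17 and SNORD15A lie in SNX5 and RPS3, and SNORD22, SNORD94 and SNORD10 in SNHG1, PTCD3 and EIF4A1. A match is a description of the letters, and annotated starts can be off by some bases.

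Of the imprinted clusters, only the one on chromosome 15 had rows above 0. There, 20 of 29 SNORD116 rows, copies from the region deleted in Prader-Willi syndrome, were above 0, while all 47 SNORD115 rows of the same locus were listed at 0. On chromosome 14 all 7 SNORD113 and all 31 SNORD114 rows were listed at 0, as were MEG3, MEG8 and DLK1 of that locus. SNRPN, at the head of the chromosome 15 transcript, measured 9.51 and 9.67 RPKM. The 19 SNORD116 copies with recovered reads held 209 reads without clusterin and 149 with it, a ratio of 0.822 (0.661 to 1.02). SNORD116-21 had 37 and 21 reads (10.3 and 6.73 RPKM), SNORD116-18 had 24 in each, and SNORD116-20 had 27 and 20; each interval included 1. Each copy with more than 10 reads in a library lay between SNORD116-13 and SNORD116-21, although SNORD116-15 and SNORD116-16 within that stretch each had 4 control and 2 clusterin reads.

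**Figure D5:**
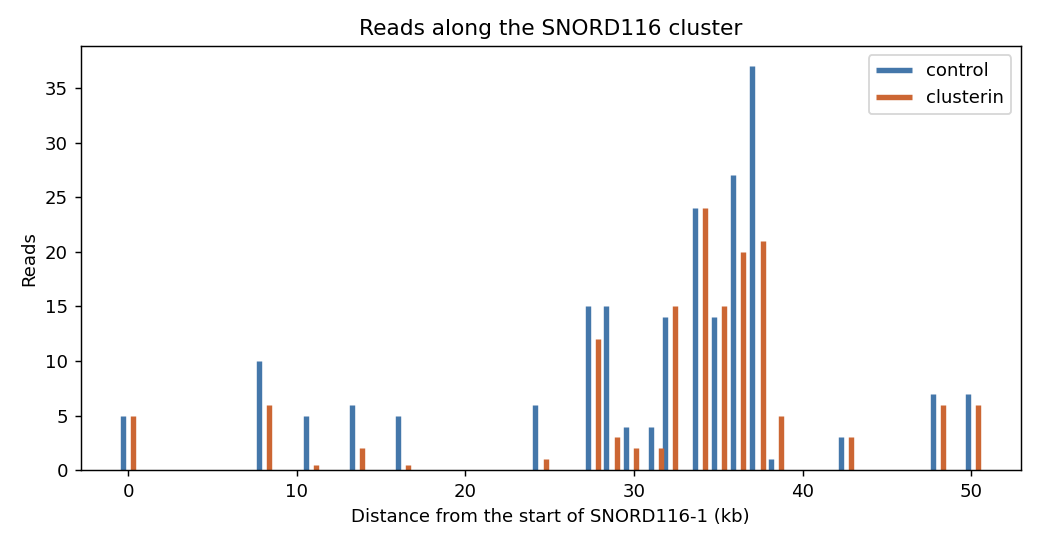
Reads of the SNORD116 copies with recovered reads in the control (blue) and clusterin (orange) library against distance from the start of SNORD116-1 in kb. The highest copy, SNORD116-21, has 37 control and 21 clusterin reads, and most copies before and after the central block have fewer than 10.

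Copies of the cluster are alike in sequence and are not independent counts. SNORD116-5 and SNORD116-7 carried identical values, 1.35 and 0.155 RPKM, as did SNORD116-15 and SNORD116-16, SNORD116-17 and SNORD116-19, SNORD109A and SNORD109B, SNORD103A and SNORD103B, and SNORD62A and SNORD62B. For SNORD109A and SNORD109B, SNORD116-5 and SNORD116-7, and SNORD62A and SNORD62B the recovered reads were not all whole, as when a read is shared between copies.

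Several members are used as reference RNAs when microRNAs are measured by PCR, and these were not equally steady between the libraries. SNORD68 (ratio 1.04), SNORD72 at 251 and 240 RPKM (0.956, 0.860 to 1.06), SNORD61 (0.970), SNORD47 (0.991) and SNORD43 (0.928) had intervals that included 1. SNORD44 measured 90.5 and 72.1 RPKM, from 211 and 146 reads, a ratio of 0.797 (0.641 to 0.989). With the median of all genes set to 0, SNORD44 was at 0.837 (0.673 to 1.04), an interval that included 1. On that scale SNORD68 was at 1.095 (1.03 to 1.17), an interval above 1, so which of these looks steady depends on the scaling. SNORD95 stood at 0.729 (0.486 to 1.08), SNORD96A at 0.754 (0.553 to 1.02) and SNORD24 at 0.553 (0.253 to 1.14), with intervals that included 1. Of these 9 members, chosen for their use with values known, 8 were below 1, against a background in which only 29.8% of genes were higher with clusterin, and 5 were below 1 with the median of all genes set to 0. SNORD48, used likewise, was listed at 0, where its host C6orf48 measured 0.429 and 0.415 RPKM. SNORD51 was listed at 0 too, though its host EEF1B2 measured 148 and 140 RPKM. RPS18, a ribosomal protein gene that all cells use, was also listed at 0, so a row at 0 is not read here as absence.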

How the data were processed

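The deposited table holds 1 level per gene in each library, and per gene a p-value, a q-value and a log2 fold change, all by the authors. Build hg19 and the tools TopHat, Bowtie and Cuffdiff are named in the submitters' processing notes, with no versions; how strand and reads with several matches were handled is not stated. The unit of the deposited levels is not named in the header and was taken as RPKM from the values: for 499 of 530 small RNA genes under 300 bases, level times length gave whole reads within 0.02 (plus rounding) at 1 total per library, with lengths up to 3 bases from the listed span searched. Whole numbers cannot tell reads from read pairs. Of the members, 146 gave whole reads, 6 gave whole reads only when doubled, 2 gave neither, and those of U3 follow from its span. The deposited log2 values were not used. Differences are log2((clusterin RPKM + 1)/(control RPKM + 1)) over genes that averaged 1 RPKM or more; ratio intervals are Clopper-Pearson intervals of the clusterin share of reads. Reads that carry no molecular identifier may repeat 1 molecule, which these intervals leave out. Members matched RefSeq starts on GRCh38 within 30 bases in 154 of 155 cases; hosts within 2000. Recovery of reads and intervals were tested on simulated data. Named members are those of ribosomal RNA processing, the 8 highest by RPKM, the 6 with the most reads, the 5 highest and 5 lowest ratios with at least 20 reads, and 3 imprinted ones; others named in the text were chosen after their values were seen. The part of the naming rule on members at 0 in 1 library took none. Members and lists were chosen with earlier results of these data known. Python 3.11.15, pandas 2.3.3, numpy 2.4.6 and scipy 1.17.1 were used. The results of 1 host gene are not reported here.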

Additional observations from a re-analysis of the deposited data

How the results depend on the processing

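The count of members at least 2-fold higher, 4, was 6 with a pseudocount of 0.1, 0 with one of 5 RPKM, 5 without the filter on low values and 1 among members with at least 20 reads. The count at least 2-fold lower, 2, was 6 at a pseudocount of 0.1, 0 at 5 RPKM, 5 with no filter on low values and 0 with at least 20 reads. The ratio of summed member reads, 1.43, was 1.06 without U3, which is also the member with the most reads, 1.50 with the median log2 ratio of all genes set to 0, and 1.45 with U3 reads left out of the library totals, a setting chosen after seeing the data. The median difference of members, -0.03, ran from -0.04 to 0.03 over 6 alternatives. Of 63 values of 21 named members under other pseudocounts and the rescaling, 58 moved by less than counting error. The 5 others, all under the rescaling, were SNORD3A (0.60), SNORD10 (0.36), SNORD17 (0.31), SNORD15B (0.14) and SNORD32A (0.03). No paired analysis was possible because each group has 1 library, and no library could be left out. Members with few reads limit what can be seen: 45 had fewer than 20 over both libraries.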

Other observations

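Besides the imprinted rows, 14 SNORD rows were listed at 0 in both libraries: SNORD11, SNORD117, SNORD121A, SNORD123, SNORD125, SNORD126, SNORD32B, SNORD48, SNORD51, SNORD52, SNORD56B, SNORD71, SNORD93 and SNORD96B. A few C/D box snoRNAs are listed a second time under Ensembl identifiers, and these rows do not always match. Under their Ensembl identifiers SNORD62A measured 0.912 and 1.402 RPKM and SNORD62B 1.82 and 0 RPKM. Each measured 1.37 and 0.701 RPKM under its symbol, from 4.5 and 2 recovered reads. The copies thus look equal in 1 listing and differ in the other, at levels too low to give a direction. SNORD57 measured 75.2 and 66.1 RPKM and SNORD56 33.9 and 35.7 RPKM in both listings.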
